A study of Homo sapiens with 6 samples.

Results

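Integrins, laminin chains and core focal adhesion proteins were compared in PC3 prostate cancer cells separated by their staining for NRP2 (neuropilin-2, which binds semaphorins and VEGF-C at the cell surface). The genes were taken by name from the protein coding rows of the deposited table: the integrin alpha and beta subunits, the laminin alpha, beta and gamma chains, and 10 named proteins of the adhesion site. This gave 42 genes of the 27958 listed, with 15 alpha integrins, 7 beta integrins and 10 laminin chains. PC3 was established from a skeletal metastasis and grows without androgen; both groups are cells of this 1 line, with no added gene or drug given in the labels. NRP2-high libraries (S38, S39, S40) and NRP2-low libraries (S35, S36, S37) came from cells that were labelled with an NRP2 antibody, separated by flow cytometry and then kept in culture, with RNA taken at different passages. The groups had 3 libraries each, and depth was 21673710 to 23130636 reads per NRP2-high library, against 17551302 to 30726744 per NRP2-low library.

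Integrins are receptors made of 1 alpha and 1 beta subunit that hold cells to the extracellular matrix. Laminins are trimers of an alpha, a beta and a gamma chain, the main adhesive proteins of basement membranes, and in the prostate they lie under the epithelium, where α6β4 and α3β1 bind them. Inside the cell, talins and kindlins bind the beta tails and switch integrins on, and vinculin, paxillin, zyxin and the kinase FAK build the link to actin. NRP2 has been described as a regulator of α6β1 in focal adhesions of breast carcinoma cells.

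Levels are given in TPM, reads per gene length scaled to a fixed library total, which makes each value a share of its library. NRP2 itself was at 48.1 (S38), 42.5 (S39) and 16.6 TPM (S40) in NRP2-high cells, against 7.55 (S35), 5.10 (S36) and 2.71 TPM (S37) in NRP2-low cells (log2 fold change 2.53, SE 0.43, limma adjusted p = 0.0375). The cells were sorted on NRP2 staining, so this p-value is a check of the sort and no independent result. Mitochondrially encoded genes took 11.1% to 18.7% of TPM in NRP2-high libraries and 14.3% (S35), 15.1% (S36) and 31.0% (S37) in NRP2-low libraries, S37 standing apart. Of the 4 epithelial markers checked, KRT8 and KRT18 were well expressed (summed marker level 433 to 759 TPM in NRP2-high libraries and 405 to 694 TPM in NRP2-low ones), while EPCAM and KRT19 were at or near 0 in every library. Summed markers of endothelial cells reached at most 0.114 TPM in NRP2-high libraries and 0.141 TPM in NRP2-low libraries, and those of leukocytes 0.782 TPM in NRP2-high cells and 1.54 TPM in NRP2-low libraries, with PTPRC, which defines leukocytes, at or near 0 throughout. The 4 fibroblast markers listed, of 5 chosen, summed to 0.618 to 2.97 TPM in NRP2-high libraries and 0.0140 to 0.337 TPM in NRP2-low libraries, in NRP2-high libraries mostly from LUM, with COL1A1 at 0.482 TPM or less and DCN near 0; their part in the results was not tested.

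Genes with 1 TPM or more in at least 3 libraries were tested on the log2(TPM + 1) scale, which took in 29 of the 42 members. No integrin, laminin or focal adhesion gene passed the threshold (limma, adjusted p under 0.05): 0 of the 29 tested members rose and 0 fell, where 0.835% of the 15214 genes tested were called. Missing the threshold does not show that a gene did not differ. At an unadjusted p under 0.05 there were 5 members, all higher in NRP2-high cells (ITGB8, TLN2, LAMB1, ITGA10 and LAMA5), where 7.00% of all tested genes passed in either direction and 4.73% upward. The groups did not overlap for 6 of the 29, these 5 and VCL, all higher in NRP2-high, where 12.0% of all tested genes had groups apart, 8.83% higher and 3.14% lower. TLN2 was tested only because its NRP2-high libraries exceeded the level filter, so its difference was partly fixed by that filter; without it the counts were 4 and 5 of 28. The limma voom test on the recovered reads called 2 members, TLN2 and LAMB1, where it called 1.31% of all genes. With protein coding genes alone TLN2 was called (1.28% of genes), and without S40 ITGA10 was (0.638% of genes); leaving out any of the other 5 libraries gave no call. In RNA from whole populations, fewer cells that express a gene and less RNA per cell cannot be told apart.

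The sequence just before the start of a gene is shown for the 4 members with the lowest p-values, because the results on single genes below turn on them. The stretches are from RefSeq (GRCh38.p14), 5′ to 3′ on the gene's strand, and end before the start of the gene in the deposited table. They were read at chr15:62390300-62390525 (plus strand) for TLN2, chr7:108003256-108003411 (minus) for LAMB1, chr1:145910190-145910300 (minus) for ITGA10 and chr7:20330650-20330701 (plus) for ITGB8. Capitals mark the GC box GGGCGG and the CCAAT box, on either strand.
TLN2: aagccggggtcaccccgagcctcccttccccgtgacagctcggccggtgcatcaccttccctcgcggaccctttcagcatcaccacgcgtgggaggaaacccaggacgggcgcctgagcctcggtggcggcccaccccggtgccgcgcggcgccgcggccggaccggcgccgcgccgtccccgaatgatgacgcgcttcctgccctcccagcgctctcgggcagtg
LAMB1: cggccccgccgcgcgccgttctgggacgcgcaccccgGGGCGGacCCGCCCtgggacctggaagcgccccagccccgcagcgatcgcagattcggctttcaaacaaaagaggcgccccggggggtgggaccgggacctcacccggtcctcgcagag
ITGA10: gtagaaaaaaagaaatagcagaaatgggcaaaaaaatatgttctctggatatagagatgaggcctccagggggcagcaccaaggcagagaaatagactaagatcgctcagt
ITGB8: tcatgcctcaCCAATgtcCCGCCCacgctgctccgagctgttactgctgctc
The LAMB1 stretch holds 2 GC boxes, 1 on each strand, and the ITGB8 stretch holds 1 GC box and 1 CCAAT box. The TLN2 and ITGA10 stretches hold none of the 5 motifs searched, which were the GC and CCAAT boxes, AP-1 (TGANTCA), the TATA box (TATAAA) and the E box (CACGTG). The bases G and C made up 74.3% of the TLN2 stretch, 75.0% of LAMB1, 61.5% of ITGB8 and 42.3% of ITGA10. In the full RefSeq windows, 250 bases before to 50 after each start, a GC box occurred in 45.0% of all 35116 promoters and in 19 of the 28 members with an entry. An AP-1 match occurred in 7.71% of all promoters and in 3 of these members, and a CCAAT box in 34.6% and in 6. ITGA10 was among these 6: its CCAAT box is in the full window and not in the stretch shown. The TATA box occurred in 11.5% of all promoters and in 2 members, and the E box in 7.26% and in 2. These matches describe letters and do not show that a factor binds.

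The members spanned from no reads to 1026 TPM, as the plot of levels by library shows. By mean TPM over all libraries the most abundant were ITGB1, ITGA6 and ITGA3, and ITGB1, the shared partner of most alpha subunits, made up 82.8% to 84.1% of all beta integrin TPM in NRP2-high cells and 78.3% to 82.8% in NRP2-low libraries.

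**Figure D1:**
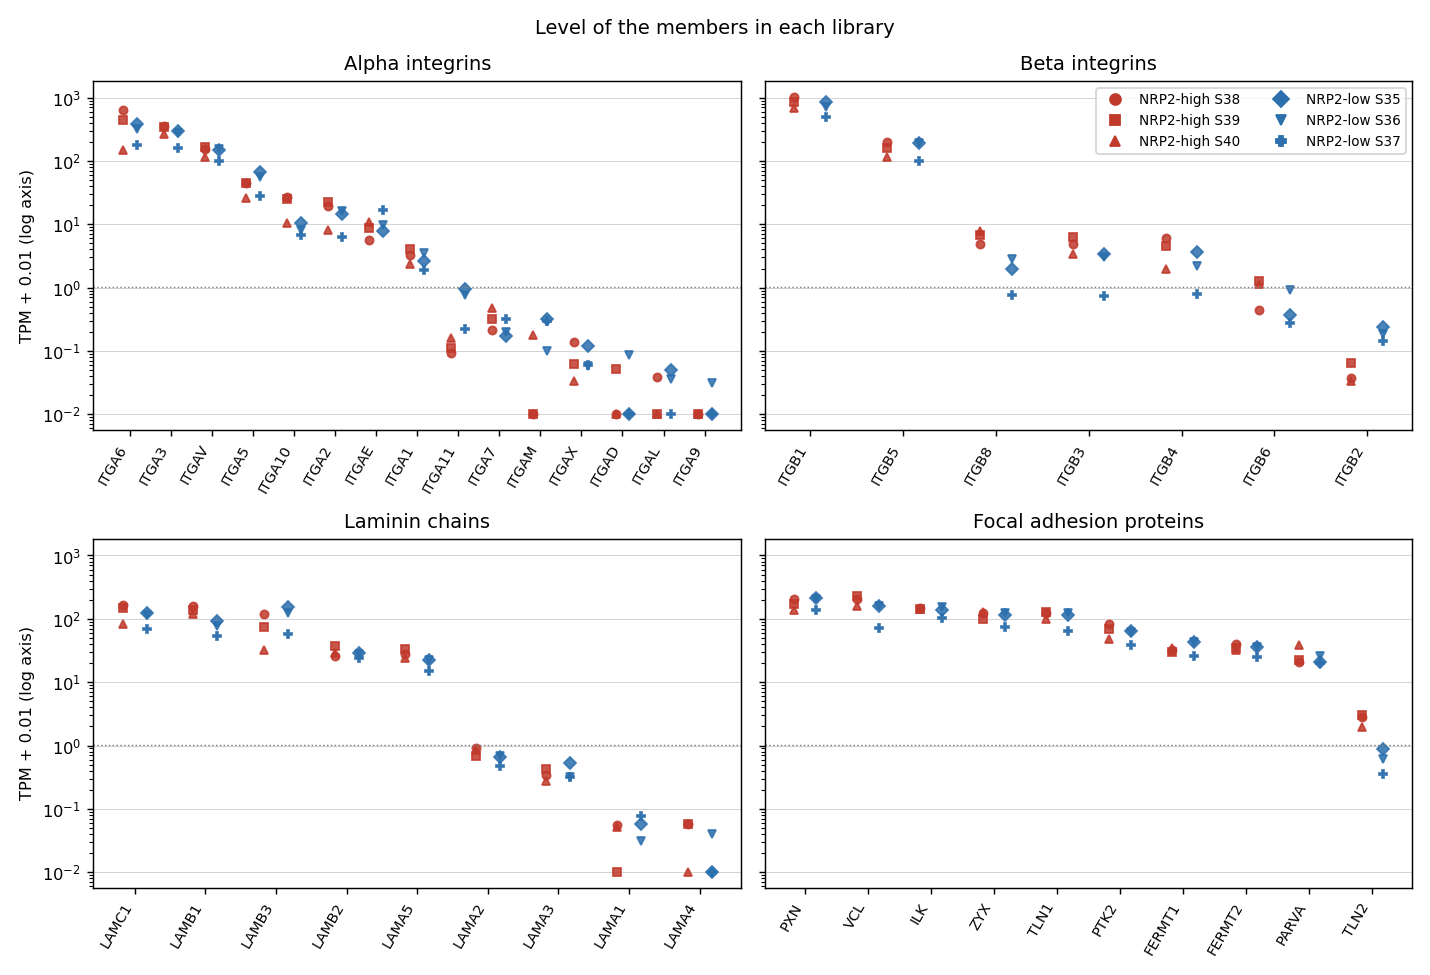
TPM + 0.01 on a log axis for 41 members, in 4 panels by role and ordered by mean level within a panel; each point is 1 library, red for NRP2-high and blue for NRP2-low, and the dotted line marks 1 TPM. Levels run from 0 to 1026 TPM, and the red and blue points of most genes overlap.

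Among alpha integrins, the laminin receptors led in both populations. ITGA6, which pairs with β1 or, in hemidesmosomes, with β4, was at 629 (S38), 435 (S39) and 150 TPM (S40) in NRP2-high cells, against 390 (S35), 325 (S36) and 179 TPM (S37) in NRP2-low cells. S38 and S39 were above every NRP2-low library and S40 was below all 3 (log2 fold change 0.29, SE 0.50, limma adjusted p = 0.926), and the sign turned without S38 (-0.15) or S37 (-0.044). ITGA3, the other main laminin receptor, was at 352, 348 and 264 TPM in NRP2-high cells against 294, 276 and 163 TPM in NRP2-low cells (0.43, SE 0.25, limma adjusted p = 0.864, and 0.16 without S37). Together with ITGA7, which stayed under 0.46 TPM, they made up 70.3% to 79.5% of alpha integrin TPM in NRP2-high cells and 68.3% to 73.1% in NRP2-low libraries. ITGAV, the alpha subunit of the vitronectin receptors, was at 152, 169 and 117 TPM in NRP2-high cells against 148, 156 and 99.2 TPM in NRP2-low cells, so its levels lay in the same range. ITGA5, the fibronectin receptor subunit, was at 38.4 ± 10.96 TPM in NRP2-high cells against 49.8 ± 20.2 TPM in NRP2-low cells (SD, n = 3 each; log2 fold change -0.32, SE 0.34). It was -0.69 without S37, -0.20 without S36, -0.063 without S35 and -0.061 without S40.

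The collagen-binding subunits were less abundant, and ITGA10 had the lowest p of the alpha integrins. ITGA10, a collagen receptor best known from cartilage (chromosome 1, 145891208 to 145910189, GRCh38), was at 26.9 (S38), 24.9 (S39) and 10.6 TPM (S40) in NRP2-high cells, against 10.4 (S35), 8.08 (S36) and 6.67 TPM (S37) in NRP2-low cells. S38 and S39 stood well above the rest, while S40 was only just above S35. Its log2 fold change came to 1.13 (95% interval 0.35 to 1.91, SE 0.34, limma adjusted p = 0.386). The call turned on S40: without it the log2 fold change was 1.54 and limma's adjusted p 0.0391, in a range of 0.0391 to 0.9998 over the alternatives. ITGA2, the main collagen receptor of epithelia, was at 16.7 ± 7.72 TPM in NRP2-high cells against 12.3 ± 5.29 TPM in NRP2-low cells, and its neighbour on chromosome 5, ITGA1, at 3.24 ± 0.833 TPM in NRP2-high cells against 2.67 ± 0.798 TPM in NRP2-low cells (SD, n = 3 each). The exons of ITGA1 overlap those of PELO on the same strand, which reached 31.8 TPM, so its reads are uncertain. ITGA10 held 54.2%, 48.0% and 50.03% of the summed TPM of the collagen-binding subunits in NRP2-high libraries, against 36.3%, 28.5% and 44.5% in NRP2-low libraries.

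ITGAE, which pairs with β7 in lymphocytes that bind E-cadherin, was at 8.45 ± 2.64 TPM in NRP2-high cells against 11.5 ± 4.81 TPM in NRP2-low cells (SD, n = 3 each; log2 fold change -0.37, SE 0.32, but -0.078 without S37, -0.14 without S38, -0.56 without S40 and -0.59 without S35), with its highest value, 16.9 TPM, in S37. Its exons overlap those of HASPIN on the opposite strand, which reached 36.6 TPM, so its reads are uncertain.

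Of the beta integrins, ITGB1 was at 1026 (S38), 867 (S39) and 698 TPM (S40) in NRP2-high cells, against 839 (S35), 716 (S36) and 491 TPM (S37) in NRP2-low cells. The groups overlapped, with S40 below both S35 and S36 (log2 fold change 0.36, SE 0.24, limma adjusted p = 0.873), and the log2 fold change was 0.14 without S37 and 0.22 without S38. ITGB5, an αv partner that binds vitronectin, was the second in level at 197, 161 and 117 TPM in NRP2-high cells against 194, 190 and 99.6 TPM in NRP2-low cells. Its log2 fold change was 0.0066 (SE 0.29, 95% interval -0.66 to 0.67) and was negative under 3 other settings and with some libraries left out.

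ITGB8 showed the lowest p of all members. It encodes the αv partner that holds latent TGF-beta at the cell surface (chromosome 7, 20330702 to 20410330). ITGB8 was at 4.84 (S38), 6.82 (S39) and 7.83 TPM (S40) in NRP2-high cells, against 1.98 (S35), 2.85 (S36) and 0.745 TPM (S37) in NRP2-low cells. All 3 NRP2-high libraries were above all 3 NRP2-low libraries, and S40, low for most members, was here the highest. It averaged 6.50 ± 1.52 TPM in NRP2-high cells and 1.86 ± 1.06 TPM in NRP2-low cells (SD, n = 3 each), and its read sums were 1698 in NRP2-high and 550 in NRP2-low cells. Its log2 fold change came to 1.44 (95% interval 0.70 to 2.19, SE 0.33, limma adjusted p = 0.143), from 1.12 without S37 to 1.69 without S36. The adjusted p ran from 0.0511 in the voom test to 0.443 without S39.

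ITGB3 and ITGB4 were expressed at a few TPM, and their groups overlapped. ITGB3, the β3 subunit of the classical vitronectin receptor, was at 4.83, 6.21 and 3.37 TPM in NRP2-high cells against 3.44, 3.08 and 0.734 TPM in NRP2-low cells, with S40 just under S35 (log2 fold change 0.85, SE 0.39, limma adjusted p = 0.731, and 0.42 without S37). ITGB4, the hemidesmosome subunit, was at 4.19 ± 2.06 TPM in NRP2-high cells against 2.22 ± 1.45 TPM in NRP2-low cells (SD, n = 3 each; log2 fold change 0.70, SE 0.43, and 0.34 without S37). Its level was far under that of ITGA6, its only alpha partner. ITGB8 took 2.34%, 3.88% and 6.04% of the summed TPM of ITGB3, ITGB5, ITGB6 and ITGB8 in NRP2-high libraries, against 0.991%, 1.45% and 0.736% in NRP2-low libraries; ITGB5 held 90.5% or more of it in every library.

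**Figure D2:**
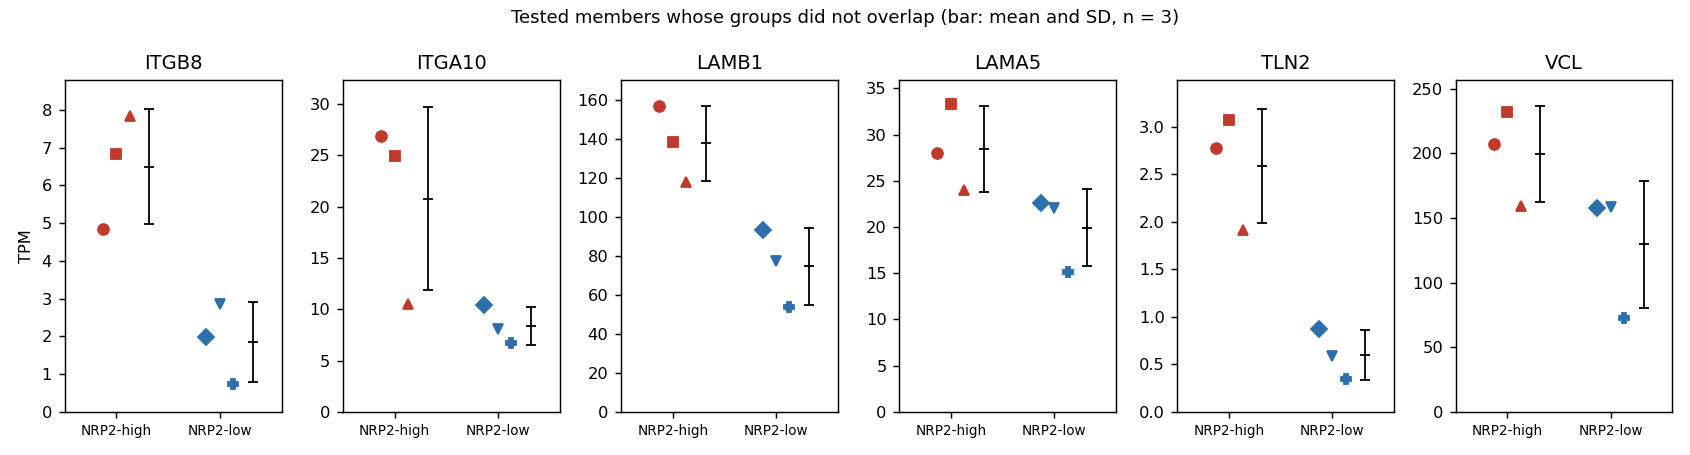
TPM on linear axes from 0 for the 6 tested members whose groups did not overlap; each point is 1 library (red NRP2-high, blue NRP2-low), with the mean and SD of 3 libraries at its side. ITGB8 lies at 4.84 to 7.83 TPM in NRP2-high libraries and 0.745 to 2.85 TPM in NRP2-low libraries, and the gap is narrowest for ITGA10 and VCL.

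Among laminin chains, LAMB1 differed most and LAMB3 lay on the other side of 0. LAMB1, the β1 chain found in many laminins (chromosome 7, 107923799 to 108003255), was at 157 (S38), 139 (S39) and 118 TPM (S40) in NRP2-high cells, against 93.2 (S35), 77.4 (S36) and 53.8 TPM (S37) in NRP2-low cells. The lowest NRP2-high library exceeded the highest NRP2-low library. It averaged 137.9 ± 19.4 TPM in NRP2-high cells and 74.8 ± 19.9 TPM in NRP2-low cells (SD, n = 3 each), with a log2 fold change of 0.90 (SE 0.22, 95% interval 0.39 to 1.41, limma adjusted p = 0.202). In the voom test the adjusted p was 0.0429, the lowest of a range up to 0.636 without S39, and the log2 fold change was 0.68 without S37. The exons of LAMB1 overlap those of DLD on the opposite strand, which reached 58.9 TPM, and how many reads they share was not tested.

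LAMA5, the α5 chain of basement membranes under most epithelia, was at 28.1, 33.3 and 24.0 TPM in NRP2-high cells against 22.6, 22.1 and 15.1 TPM in NRP2-low cells. The groups were apart by a narrow gap between S40 and S35 (log2 fold change 0.50, SE 0.21, limma adjusted p = 0.680), and without S37 the log2 fold change was 0.32. LAMA5 overlaps ADRM1 on the opposite strand, which reached 209 TPM, so the reads of LAMA5 are uncertain. As counted, LAMA5 was nearly the only alpha chain, with 95.5% to 96.7% of laminin alpha chain TPM in NRP2-high cells and 94.7% to 95.6% in NRP2-low libraries.

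LAMB3, the β3 chain of laminin-332, the anchoring laminin of hemidesmosomes, was at 120 (S38), 74.6 (S39) and 31.8 TPM (S40) in NRP2-high cells, against 156 (S35), 125 (S36) and 58.3 TPM (S37) in NRP2-low cells. The values of the groups overlapped, with S40 lowest of all and S35 highest (log2 fold change -0.65, SE 0.49, 95% interval -1.78 to 0.47, limma adjusted p = 0.890). It ran from -1.08 without S38 and -1.07 without S37 to -0.37 without S35 and -0.14 without S40. LAMA3, the α3 chain of laminin-332, was far lower, at 0.266 to 0.422 TPM in NRP2-high libraries and 0.303 to 0.523 TPM in NRP2-low libraries.

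The beta chains were also set against each other within a library. Both measures used contain LAMB1, whose groups were already apart in its own levels, so they are no separate evidence. The groups of LAMB3 and LAMB2 each overlapped in their own levels. LAMB3 held 39.7%, 29.8% and 17.8% of the summed TPM of LAMB1, LAMB2 and LAMB3 in NRP2-high libraries, against 56.0%, 54.3% and 42.9% in NRP2-low libraries, so all 3 NRP2-high libraries were below all 3 NRP2-low libraries. LAMB1 per LAMB3 was 1.31, 1.86 and 3.71 in NRP2-high and 0.599, 0.619 and 0.922 in NRP2-low libraries. These shares do not depend on how a library is scaled; they were chosen after the values were seen and no test was run on them. LAMB2 was at 30.5 ± 5.69 TPM in NRP2-high cells against 27.0 ± 2.88 TPM in NRP2-low cells (SD, n = 3 each). LAMC1, the γ1 chain and the main partner of LAMB1, was at 167, 146 and 83.9 TPM in NRP2-high cells against 125, 114 and 68.4 TPM in NRP2-low cells, which overlap (log2 fold change 0.35, SE 0.31, but 0.090 without S37, 0.16 without S38 and 0.65 without S40). Summed over the listed chains, alpha chains came to 25.1 to 34.5 TPM in NRP2-high cells and 16.0 to 23.8 TPM in NRP2-low libraries, and beta chains to 179 to 303 TPM in NRP2-high against 136 to 278 TPM in NRP2-low libraries. In every library alpha chain transcripts were fewer than beta chain transcripts.

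**Figure D3:**
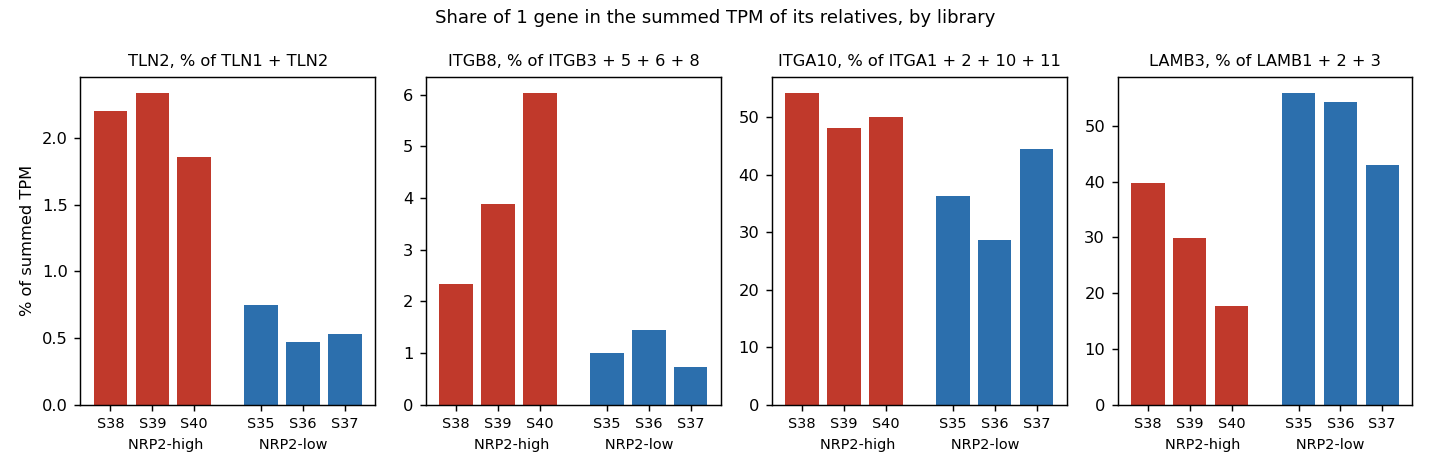
Bars from 0 give the share of 1 gene in the summed TPM of its relatives in each library, red for NRP2-high and blue for NRP2-low. TLN2, ITGB8 and ITGA10 hold a larger share in every NRP2-high library than in any NRP2-low library, and LAMB3 a smaller one (17.8% to 39.7% against 42.9% to 56.0%). The groups of TLN2, ITGB8 and ITGA10 were already apart in their own levels, so these shares are no separate evidence. The same holds for the LAMB3 share. Its sum contains LAMB1, whose groups were already apart, while the groups of LAMB3 itself overlapped. No test was run on any share.

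Of the focal adhesion proteins, the minor talin had the lowest p. TLN2, the second talin, which like TLN1 joins beta integrin tails to actin (chromosome 15, 62390526 to 62844631), was at 2.78 (S38), 3.07 (S39) and 1.92 TPM (S40) in NRP2-high cells, against 0.868 (S35), 0.592 (S36) and 0.343 TPM (S37) in NRP2-low cells. No NRP2-low library reached 1 TPM, so TLN2 passed the level filter through its NRP2-high libraries alone. Its difference was therefore partly fixed by that filter, also where it was called. Its read sums were 710 in NRP2-high and 197 in NRP2-low cells. Its log2 fold change came to 1.16 (95% interval 0.55 to 1.77, SE 0.27, limma adjusted p = 0.151). It was 2.01 in the voom test (adjusted p = 0.0104) and 1.98 with a pseudocount of 0.1 (0.248), because adding 1 to low TPM values shrinks their ratio. With protein coding genes alone in the table the adjusted p was 0.0446, and over all alternatives it ran from 0.0104 to 0.583, the highest without S39. TLN1, the main talin, was at 117 ± 14.3 TPM in NRP2-high cells against 101 ± 32.4 TPM in NRP2-low cells (SD, n = 3 each; log2 fold change 0.26, SE 0.25), so TLN2 held 2.20%, 2.34% and 1.86% of talin TPM in NRP2-high against 0.748%, 0.473% and 0.531% in NRP2-low libraries.

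VCL, vinculin, which ties talin to actin under load, was at 207 (S38), 232 (S39) and 159 TPM (S40) in NRP2-high cells, against 157 (S35), 158 (S36) and 72.9 TPM (S37) in NRP2-low cells. The groups were apart by about 1 TPM, with S40 just over S36 (log2 fold change 0.69, SE 0.31, limma adjusted p = 0.719). Without S37 the log2 fold change was 0.32. VCL overlaps AP3M1 on the opposite strand, which reached 158 TPM, and how many reads they share was not tested.

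For the other proteins of the adhesion site the groups overlapped. PXN, the scaffold paxillin, was at 206, 172 and 140 TPM in NRP2-high cells against 210, 207 and 139 TPM in NRP2-low cells (log2 fold change -0.10, SE 0.22). ILK, a pseudokinase that links beta integrin tails to parvins, was at 150, 144 and 141 TPM in NRP2-high cells against 136, 154 and 104 TPM in NRP2-low cells (0.16, SE 0.18, but 0.0035 without S37 and 0.28 without S36), and varied least of all tested members within NRP2-high. PARVA, the parvin bound to ILK, was at 27.3 ± 9.72 TPM in NRP2-high cells against 22.4 ± 2.92 TPM in NRP2-low cells, with S40 highest at 38.5 TPM, and ZYX, zyxin, at 117 ± 15.3 TPM in NRP2-high cells against 104 ± 25.8 TPM in NRP2-low cells (SD, n = 3 each). PTK2, which encodes FAK, was at 67.1 ± 17.5 TPM in NRP2-high cells against 54.7 ± 14.2 TPM in NRP2-low cells (SD, n = 3 each). Both kindlins were expressed: FERMT1, the epithelial one, was at 32.3 ± 2.74 TPM in NRP2-high cells against 37.2 ± 9.44 TPM in NRP2-low cells, and FERMT2, the widespread one, at 35.5 ± 4.09 TPM in NRP2-high cells against 32.02 ± 6.42 TPM in NRP2-low cells (SD, n = 3 each). The 95% interval of the log2 fold change of PXN ran from -0.60 to 0.40 and that of ILK from -0.24 to 0.56.

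**Figure D4:**
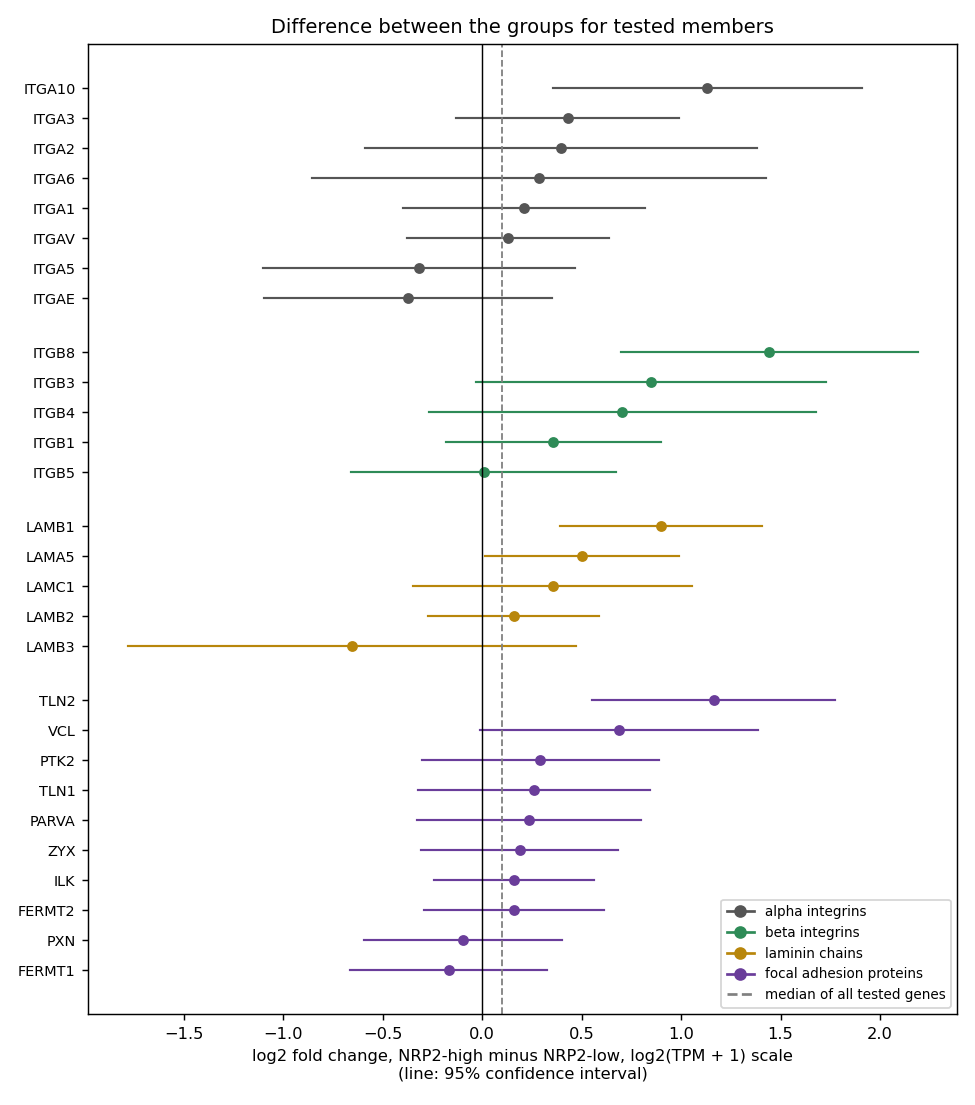
Log2 fold change (NRP2-high minus NRP2-low, log2(TPM + 1) scale) with its 95% confidence interval for 28 tested members, coloured by role; the dashed line is the median of all tested genes, 0.10. Of the 28 points 23 lie above 0, ITGB8 is the highest at 1.44 and LAMB3 the lowest at -0.65.

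As a group, 24 of the 29 tested members had a log2 fold change above 0, the median being 0.26 (0.25 without TLN2), whereas 66.3% of all tested genes were above 0 and their median was 0.10. Of the 87 tested genes in the 5 further adhesion lists below, 71 lay above 0. The count of members above 0 was 17 of 29 without S37, 21 without S38 and 23 to 25 with any other library left out. The median moved with single libraries: it was 0.048 without S37 (all genes -0.0039), 0.50 without S40, 0.43 without S35 and 0.20 without S38. With mitochondrial genes taken out and the rest rescaled it was 0.18 (all genes 0.018), and with median log ratio scaling 0.15 (all genes -0.0083). By role, the medians were 0.25 for 8 alpha integrins, 0.70 for 5 beta integrins, 0.26 for 6 laminin chains and 0.21 for 10 focal adhesion proteins. The beta integrin median is the value of ITGB4, whose groups overlapped and whose log2 fold change was 0.34 without S37. Without the level filter 28 of all 42 members lay above 0, with a median of 0.16 against 0.049 for all genes.

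The 13 members below the filter never exceeded 1.24 TPM, and 9 of them had under 100 reads over the 6 libraries. They include the leukocyte subunits ITGAL, ITGAM, ITGAX, ITGAD and ITGB2. For 3 of the 13 the groups did not overlap, 1 higher and 2 lower in NRP2-high, where 13.2% of protein coding genes below the filter were apart and 4.20% lower. ITGA11, a collagen receptor of fibroblasts, was at 0.0842, 0.101 and 0.150 TPM in NRP2-high cells against 0.942, 0.757 and 0.215 TPM in NRP2-low cells, on sums of 21 (NRP2-high) and 141 reads (NRP2-low), and limma without a filter gave an adjusted p of 0.637. ITGB2, the common leukocyte subunit, was at 0.0269, 0.0536 and 0.0239 TPM in NRP2-high cells against 0.226, 0.176 and 0.132 TPM in NRP2-low cells, on sums of 4 (NRP2-high) and 24 reads (NRP2-low). LAMA2, the α2 chain of muscle laminin, was at 0.901, 0.685 and 0.832 TPM in NRP2-high cells against 0.642, 0.662 and 0.467 TPM in NRP2-low cells. ITGB6, the epithelial αv partner, was at 0.429, 1.24 and 1.11 TPM in NRP2-high cells against 0.355, 0.914 and 0.268 TPM in NRP2-low cells, and LAMA1, LAMA4 and ITGA9 were at 0.0678 TPM or less.

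Libraries of 1 group differed among themselves in most members. S40 was the lowest NRP2-high library for 23 of the 29 tested members, against 45.5% of all tested genes. S37 was the lowest NRP2-low library for 28 of the 29, against 67.8% of all tested genes. With mitochondrial genes removed and the rest rescaled the counts were 22 for S40 (38.9% of all genes) and 25 for S37 (46.5%). The ratio of the highest to the lowest library had a median of 1.62 over the members in NRP2-high and 1.83 in NRP2-low, against 1.396 in NRP2-high and 1.51 in NRP2-low over the genes with reads in all libraries of the group.

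The spread within NRP2-high was wide in LAMB3, in both subunits of the laminin receptor α6β4 and in the collagen receptor subunit ITGA2. Highest over lowest library was 4.20 for ITGA6, 3.78 for LAMB3, 3.07 for ITGB4 and 2.84 for ITGA2 within NRP2-high. Within NRP2-low it was 2.18 for ITGA6, 2.67 for LAMB3, 4.64 for ITGB4 and 2.57 for ITGA2, and also 4.68 for ITGB3 and 3.82 for ITGB8. S38 was the highest NRP2-high library for ITGA6, LAMB3 and ITGB4, and S40 and S37 were the lowest of their groups for these 3 and for ITGA2. These genes were picked after their values were seen. Passage differed between RNA samples per the labels, and its part in this spread was not tested.

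**Figure D5:**
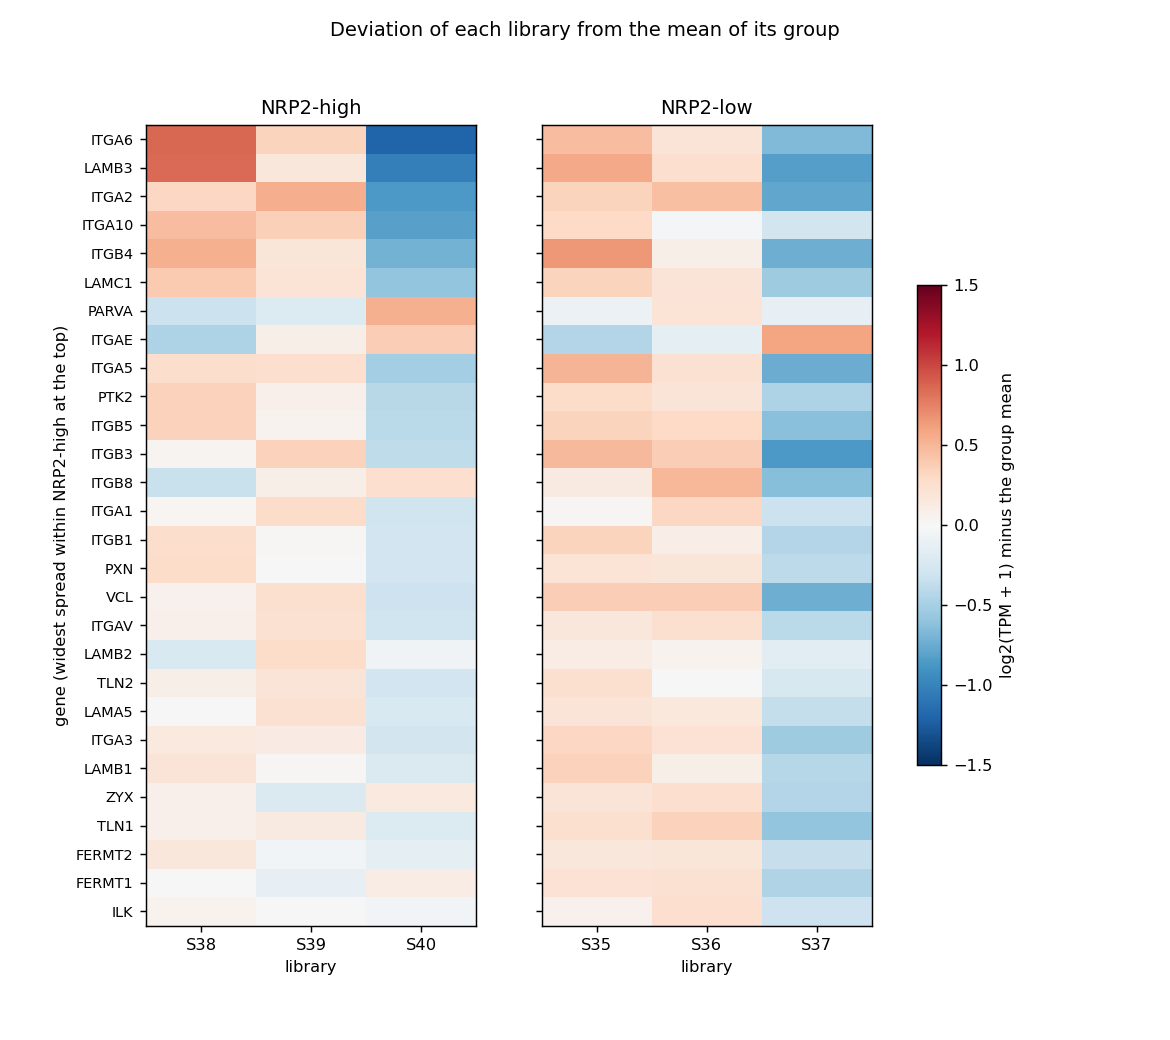
Each cell gives log2(TPM + 1) in 1 library minus the mean of its group for 28 tested members (red above, blue below), with NRP2-high libraries on the left and NRP2-low libraries on the right. The columns of S40 and S37 are blue for most genes, 22 (S40) and 27 (S37) of 28 being lowest there, and within NRP2-high the strongest colours are in ITGA6 and LAMB3.

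Further genes of the adhesion pathway were described in 5 lists. Of 111 genes in them, 110 are in the table and 87 were tested; 0 passed the threshold (limma, adjusted over all genes) and 13 had an unadjusted p under 0.05, 10 higher and 3 lower in NRP2-high. Of all tested genes 0.835% passed the threshold, and at the unadjusted p 7.00% did in either direction and 4.73% upward. Among 26 tested actin linkers of adhesion sites 23 were above 0 (median log2 fold change 0.33). ACTN4, an actin crosslinker, was at 262 ± 9.40 TPM in NRP2-high cells against 170 ± 49.7 TPM in NRP2-low cells, FLNA, filamin A, at 630 ± 25.1 TPM in NRP2-high cells against 449 ± 157 TPM in NRP2-low cells, and CSRP1, a LIM protein, at 37.6 ± 1.39 TPM in NRP2-high cells against 25.9 ± 4.30 TPM in NRP2-low cells (SD, n = 3 each). S37 lay far below the other NRP2-low libraries for FLNA, at 268 TPM against 542 (S35) and 537 TPM (S36) (limma adjusted p = 0.758). The same held for ACTN4, at 112 TPM against 197 (S35) and 200 TPM (S36) (limma adjusted p = 0.487). KANK1, which binds talin at the rim of adhesions, was on the other side, at 1.22 ± 0.158 TPM in NRP2-high cells against 3.65 ± 0.905 TPM in NRP2-low cells (SD, n = 3 each; log2 fold change -1.05, SE 0.25, limma adjusted p = 0.167).

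In 10 tested basement membrane partners of laminin 8 lay above 0 with a median of 0.42. HSPG2, the proteoglycan perlecan, was at 21.4 ± 8.92 TPM in NRP2-high cells against 7.72 ± 3.02 TPM in NRP2-low cells (log2 fold change 1.33, SE 0.39, limma adjusted p = 0.343), and COL18A1 at 78.1 ± 5.34 TPM in NRP2-high cells against 50.5 ± 13.4 TPM in NRP2-low cells. For HSPG2 only S38 and S39 stood well above the rest, with S40 at 11.1 TPM just above S35 at 10.1 TPM. AGRN, agrin, was at 94.0 ± 12.9 TPM in NRP2-high cells against 68.5 ± 17.7 TPM in NRP2-low cells, and NPNT, the α8β1 ligand nephronectin, at 81.7 ± 37.5 TPM in NRP2-high cells against 61.1 ± 18.1 TPM in NRP2-low cells (SD, n = 3 each). Of 11 tested genes in the list of non-integrin matrix receptors and hemidesmosome genes 7 lay above 0 (median 0.10); the syndecans SDC2, at 26.7 ± 5.98 TPM in NRP2-high cells against 43.0 ± 8.41 TPM in NRP2-low cells, and SDC4, at 192 ± 33.8 TPM in NRP2-high cells against 311 ± 91.7 TPM in NRP2-low cells, had the lowest p and lay below 0 (-0.67 and -0.66). RPSA, the ribosomal protein also known as a laminin receptor, and the hyaluronan receptor CD44 were the most abundant, with log2 fold changes of -0.0037 and 0.080.

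Of 22 tested adaptors and kinases of integrin signalling 18 lay above 0 (median 0.15). CAV1, caveolin-1, was at 266 ± 12.6 TPM in NRP2-high cells against 186 ± 38.4 TPM in NRP2-low cells, the paxillin relative LPXN at 5.51 ± 1.13 TPM in NRP2-high cells against 3.36 ± 0.328 TPM in NRP2-low cells, and the kinase PAK2 at 301 ± 18.3 TPM in NRP2-high cells against 268 ± 71.4 TPM in NRP2-low cells (SD, n = 3 each). Of 18 tested regulators of integrin activity and traffic 15 lay above 0 (median 0.089). DAB2, an adaptor for integrin endocytosis, was at 7.74 ± 3.03 TPM in NRP2-high cells against 3.38 ± 1.39 TPM in NRP2-low cells, and TGM2, a transglutaminase that bridges integrins and fibronectin, at 154 ± 24.1 TPM in NRP2-high cells against 246 ± 104 TPM in NRP2-low cells (SD, n = 3 each). The groups overlapped for both, with S40 at 4.36 TPM just under S35 at 4.39 TPM for DAB2 (limma adjusted p = 0.537). CALR, calreticulin, and the GTPase ARF6 were the most abundant, with log2 fold changes of 0.17 and 0.27. The exons of 20 of the 42 members overlap exons of a listed gene on the opposite strand. Among those not mentioned above is TLN1, which overlaps CREB3, a gene that reached 77.2 TPM. The overlap's part in the values was not tested for any member.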

How the data were processed

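Transcript levels in 6 libraries of sorted PC3 cells were analysed. The authors deposited 1 table of TPM values with gene lengths. The submitters' processing notes name featureCounts 1.5.2, DESeq2 1.20.0 and the build hg38 (GRCh38.p12); aligner and strand setting: not given in the sources used here. TPM times gene length gave whole read steps for 100% of non-zero values (tolerance 0.001), and from these the read totals.

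Columns were tied to groups by the word High or Low in their names. Genes with TPM of 1 or more in 3 or more libraries were fitted as log2(TPM + 1), which understates fold changes of low genes, with limma 3.58.1 in R 4.3.3 (lmFit, eBayes with a mean-variance trend; group the only term; two-sided; Benjamini-Hochberg over all genes kept; threshold 0.05). Tables were handled in pandas 2.3.3 and numpy 2.4.6 under Python 3.11.15. The fit was tested on simulated data, where it missed most of the smaller changes and also called some unchanged genes. Passages differed per the labels, which give neither the passage of a library nor whether replicates were sorted or grown apart, so the p-values cover the spread among these libraries alone, in part possibly technical.

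The members and lists were chosen with earlier results of these data known. Per-library values are given for members with an unadjusted p under 0.05, members whose groups do not overlap and the 3 most abundant of each role; values of some others were added after they were seen. From each other list the 2 genes with the lowest p and the 2 with the highest mean TPM are named. Alternatives were another pseudocount, no filter, no trend, 2 rescalings, protein coding genes only, limma voom on the recovered reads, and leaving out each library. Overlapping exons were looked up in GENCODE release 29, whose IDs cover all 42 members. Promoter sequences are from RefSeq (GRCh38.p14). Some genes, 1 member among them, are counted in the totals but not reported here by name or drawn.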

Additional observations from a re-analysis of the deposited data

How the results depend on the processing

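Read depth was 17551302 reads or more per library, and 9 members rest on under 100 reads in all, so their levels are imprecise. No paired analysis was possible because the column names carry no replicate numbers of the labels. The count of genes called, 127 with the main settings, was 74 without a filter and 200 with voom on the recovered reads, and 43 to 97 with a library left out. Members called higher numbered 1 with protein coding genes only (TLN2), 2 with voom (TLN2 and LAMB1) and 0 to 1 with a library left out (ITGA10 without S40), and 0 members were called lower under any setting. TLN2 passed the level filter through its NRP2-high libraries alone, so its calls were partly fixed by that filter. Over all alternatives 345 values of the 28 tested members reported here kept their direction and their side of the threshold, 4 passed it and 15 changed sign, none of them past the threshold. The log2 fold change of ITGB5 was -0.10 with median log ratio scaling, -0.084 without mitochondrial genes and -0.096 with voom. With a library left out it ran from -0.15 to 0.88 for ITGA6, -0.073 to 0.28 for ITGAV, -0.31 to 0.21 for ITGB5, -0.29 to 0.044 for PXN, -0.036 to 0.44 for TLN1, -0.033 to 0.39 for PARVA, -0.014 to 0.25 for FERMT2 and -0.034 to 0.32 for ZYX. The median of all tested genes was -0.0083 with median log ratio scaling and -0.0039 to 0.17 with a library left out; that of the tested members ran from 0.048 to 0.50. What caused these shifts was not tested.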
